A study of Mus musculus with 10 samples.

Results

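The 36 genes described here encode actin, the proteins that build, cut, cap, crosslink and pull actin filaments, and the transcription factor SRF, which controls many of them. They were taken by symbol from a list that was chosen with earlier results of these data known. Each symbol matched 1 Ensembl identifier of the tables in GENCODE mouse release M21, and these genes are 36 of the 38922 measured. RNA-seq of whole liver was available from male wildtype mice of the inbred C57BL/6N strain, aged 6 weeks. Of the 10 mice, 5 received an intraperitoneal injection of CD95-Ab at 0.5 µg per g of body weight, an activating antibody against the death receptor CD95 (Fas) whose engagement kills hepatocytes, and the other 5 received saline in the same volume. All were sacrificed at 6 h, and the comparison asks how CD95 activation changes the liver transcriptome relative to saline-injected controls. No deletion, transgene or second agent is stated for either group, and each mouse gave 1 library, so n is 5 mice per group throughout. Mice are named below by the replicate number of their label, and 5 values in a row are always those of replicates 1 to 5.

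Actin cycles between single molecules (G-actin) and filaments (F-actin). Nucleators such as the Arp2/3 complex start filaments, profilin feeds them, cofilin and gelsolin cut them, and myosin II pulls on them against adhesions to the matrix. SRF binds a short DNA element, the CArG box, in the promoters of actin, smooth muscle and growth-responsive genes. Its partners MRTF-A and MRTF-B are held by G-actin and reach the nucleus when G-actin is used up by polymerisation, whereas the ternary complex factors of the Elk family answer to growth factor signalling. In liver, hepatocytes line their bile canaliculi with actin and myosin, stellate and smooth muscle cells carry the contractile forms, and leukocytes and platelets are rich in actin and its regulators.

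The promoters of the members were read for the CArG box because it is the element through which SRF acts. RefSeq (GRCm38.p6) held a window from 250 bases before to 50 bases after the transcription start for 34 of the 36 members, all but Actb and Tagln. A CArG box was taken as CC, then only A or T, then GG, over 10 bases in all. Elements with a mismatch to this pattern were not counted. The box, whose letters read as a CArG box on both strands, was found in 4 of these 34 genes (11.8%), compared with 1.81% of the 27025 genes in the same table. The members were listed as actin cytoskeleton and SRF target genes, so this difference is not independent of their choice. No other motif was searched. The 4 windows are shown 5′ to 3′ on the strand of the gene with the box in capitals, at chr17:46556113-46556412 (minus strand) for Srf, chr11:120348446-120348745 (minus strand) for Actg1, chr14:20929148-20929447 (plus strand) for Vcl and chr2:156775214-156775513 (plus strand) for Myl9.
Srf: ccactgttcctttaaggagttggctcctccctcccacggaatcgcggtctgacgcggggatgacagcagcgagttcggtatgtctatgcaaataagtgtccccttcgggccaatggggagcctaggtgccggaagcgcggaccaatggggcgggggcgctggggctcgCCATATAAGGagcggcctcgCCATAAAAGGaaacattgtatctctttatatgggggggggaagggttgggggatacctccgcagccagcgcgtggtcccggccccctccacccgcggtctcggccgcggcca
Actg1: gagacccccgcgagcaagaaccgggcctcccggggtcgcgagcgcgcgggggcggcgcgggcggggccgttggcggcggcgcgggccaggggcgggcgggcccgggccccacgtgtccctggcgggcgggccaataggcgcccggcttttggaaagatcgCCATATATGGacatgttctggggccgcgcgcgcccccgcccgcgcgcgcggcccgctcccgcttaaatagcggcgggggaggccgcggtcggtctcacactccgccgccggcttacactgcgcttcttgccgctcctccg
Vcl: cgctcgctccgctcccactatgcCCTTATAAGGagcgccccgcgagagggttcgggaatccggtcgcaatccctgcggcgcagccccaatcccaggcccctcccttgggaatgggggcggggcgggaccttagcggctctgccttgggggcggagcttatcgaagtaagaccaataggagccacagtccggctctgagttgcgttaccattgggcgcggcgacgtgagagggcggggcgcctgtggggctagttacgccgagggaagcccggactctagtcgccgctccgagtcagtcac
Myl9: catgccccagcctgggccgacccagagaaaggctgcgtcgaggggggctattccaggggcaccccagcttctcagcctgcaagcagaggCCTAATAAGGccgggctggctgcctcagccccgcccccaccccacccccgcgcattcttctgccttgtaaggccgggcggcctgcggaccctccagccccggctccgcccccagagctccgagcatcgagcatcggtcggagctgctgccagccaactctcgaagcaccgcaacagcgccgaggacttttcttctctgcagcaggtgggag
Srf had 2 boxes, at bases 82 to 73 and 62 to 53 before its start. The box of Actg1 lay at bases 90 to 81, that of Myl9 at bases 161 to 152 and that of Vcl at bases 227 to 218 before the start. The match describes letters in this window, and the window leaves out introns and distant elements.

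Nearly all of the members were higher after CD95-Ab. Of the 36 members, 35 were higher at an FDR of 0.05 or less (edgeR quasi-likelihood test, Benjamini-Hochberg adjustment over 13719 genes), none was lower and 1, the crosslinker gene Actn4, was not called. Among all tested genes 47.3% were called, 25.4% higher and 22.0% lower. The additional threshold of a log2 fold change of 2 or more was passed by 12 members (Actg1, Tmsb4x, Capg, Flna, Tagln, Tagln2, Vcl, Vasp, Tpm4, Myh9, Msn and Ezr), compared with 6.59% of all tested genes, and none fell by 2 or more, compared with 1.11%. For 30 members every CD95-Ab mouse lay above every saline mouse, which held for 18.6% of tested genes in this direction and for 14.7% in the opposite one. Every member had a log2 fold change above 0, so none was lower at an unadjusted p or with the DESeq2 Wald test either. The groups overlapped for Acta2, Arpc3, Pfn1, Actn1, Actn4 and Tpm2. The log2 fold changes of the members ran from 0.15 to 4.20 with a median of 1.56, whereas the median of all tested genes was 0.01 and their 5th to 95th percentiles were -1.16 to 2.30. All 36 members passed the filter on low counts. Together they took up 0.208% ± 0.030 (SD, n = 5) of all counts in saline-injected mice and 0.677% ± 0.109 in mice injected with CD95-Ab. Vcl stood at the fold threshold with a log2 fold change of 2.00, and the Vcl log2 fold change was 1.78 without saline replicate 5, 1.91 without CD95-Ab replicate 1 and 1.99 without CD95-Ab replicate 2. It was also below 2 without CD95-Ab replicate 3, and that of Tmsb4x was below 2 without saline replicate 3 (1.95) or 4 (1.99).

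**Figure D1:**
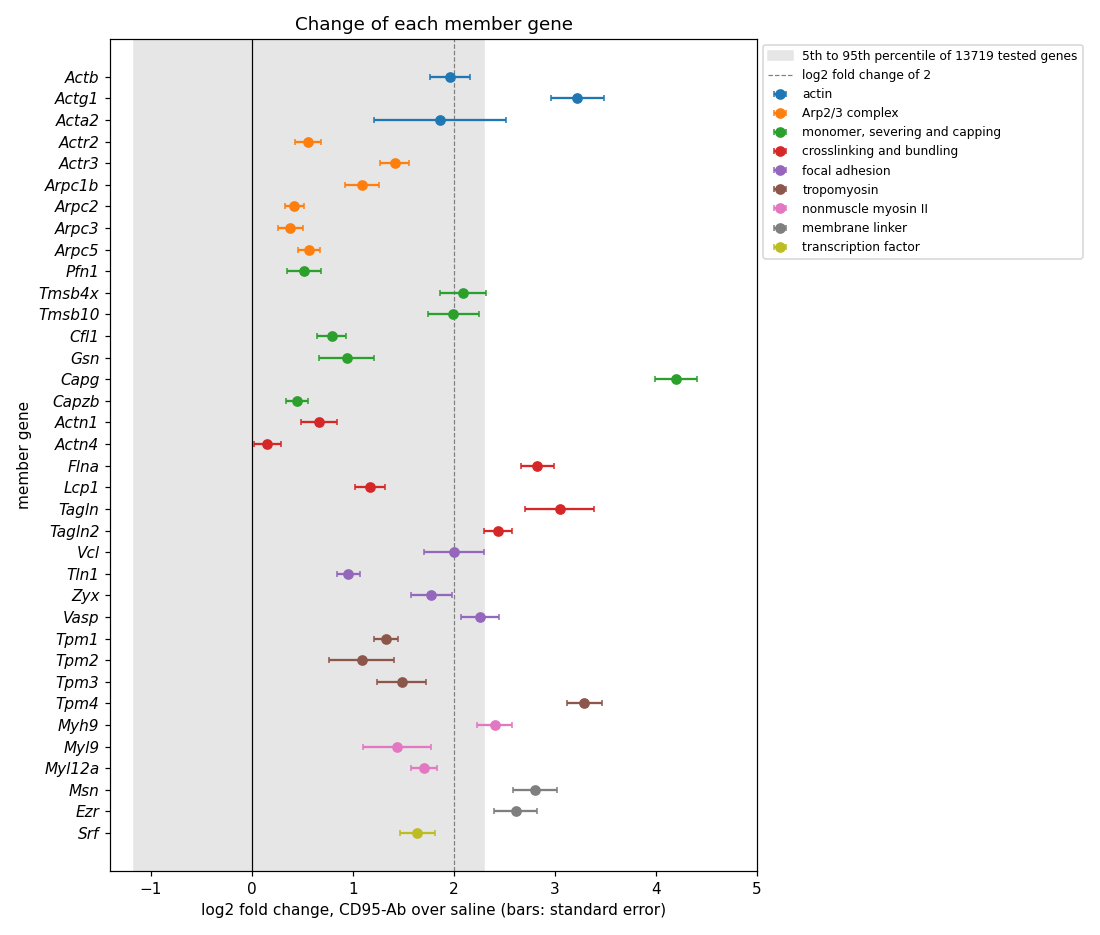
Log2 fold change of each of the 36 members (x axis, CD95-Ab over saline, bars are the standard error, n = 5 mice per group), with colours for the role of each gene on the y axis. The grey band spans the 5th to 95th percentiles of the 13719 tested genes (-1.16 to 2.30), the dashed line marks a log2 fold change of 2, and all points lie above 0, from 0.15 for Actn4 to 4.20 for Capg.

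The members did not shift to the same extent in each mouse. CD95-Ab replicate 3 was the highest of its group for 22 of the 36 members, and replicates 5 and 4 were the lowest for 16 and 13. The share of all counts that the members took up was highest in CD95-Ab replicate 2 (0.805%), compared with 0.739% in replicate 1 and 0.711% in replicate 3. The same ranking of mice was not made over all tested genes, so it is not shown to be particular to the members. Among controls, saline replicate 1 was the highest for 12 members and saline replicate 3 the lowest for 14. Depth was 25965699 to 62097636 counts in saline-injected mice and 27480796 to 44962196 after CD95-Ab, and the first principal component held 67.7% of the variance. No batch is stated in the labels or methods.

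Markers of the cell types that a liver sample can hold were summed in CPM (counts per 1000000 of the total after TMM adjustment, which discounts a few very abundant genes) for each mouse, since leukocytes, platelets, endothelium and muscle cells all use the genes described here. Hepatocyte markers had the highest sum of all lists in every library of this tissue, with Alb and Apoa1 the most abundant of them. Of these markers 3 of 8 were lower and none higher after CD95-Ab (sum 105015 to 131147 CPM in saline mice and 50014 to 88246 CPM in CD95-Ab mice). Alb made up most of this sum, with means of 84727 CPM in saline mice and 41434 CPM in CD95-Ab mice. The other 5 hepatocyte markers were not called, and log2 fold changes on the list ran from -1.03 to 0.31. Neutrophil markers were higher for 6 of 6 tested, led by S100a8 and S100a9, and their sum did not overlap between groups (4.23 to 10.5 and 103 to 427 CPM). Those carried by all leukocytes were higher for 6 of 6 (24.9 to 72.2 and 204 to 273 CPM), those of Kupffer cells and macrophages for 3 of 8 (133 to 455 and 278 to 594 CPM), those of T and NK cells for 6 of 7 (1.27 to 5.53 and 6.50 to 11.9 CPM) and those of B cells for 3 of 4 (0.693 to 3.77 and 2.37 to 14.5 CPM). Platelet markers were higher for 4 of 4 (2.20 to 8.45 and 9.92 to 31.1 CPM), endothelial markers for 6 of 7 (52.2 to 111 and 177 to 366 CPM), stellate and smooth muscle markers for 5 of 10 (193 to 298 and 416 to 775 CPM) and cholangiocyte markers for 4 of 5 (18.4 to 33.9 and 48.4 to 186 CPM). Erythrocyte markers were higher for 5 of 5, with sums of 135 to 323 CPM in saline mice and 1064 to 33995 CPM in CD95-Ab mice. Among all tested genes 25.4% were called higher and 22.0% lower. Of the lists with higher markers, that of Kupffer cells and macrophages lay nearest to this share, with 5 of 8 not called and sums that overlapped. Mpo (neutrophils), Ms4a1 and Pax5 (B cells) and Gp9 and Gp1bb (platelets) had 0 counts in at least 1 mouse. Apart from the hepatocyte list, the mean sums were higher after CD95-Ab, as the members were, and their part in the changes described below was not tested. In bulk samples, a change in the number of cells of a type cannot be told apart from a change in the RNA per cell.

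**Figure D2:**
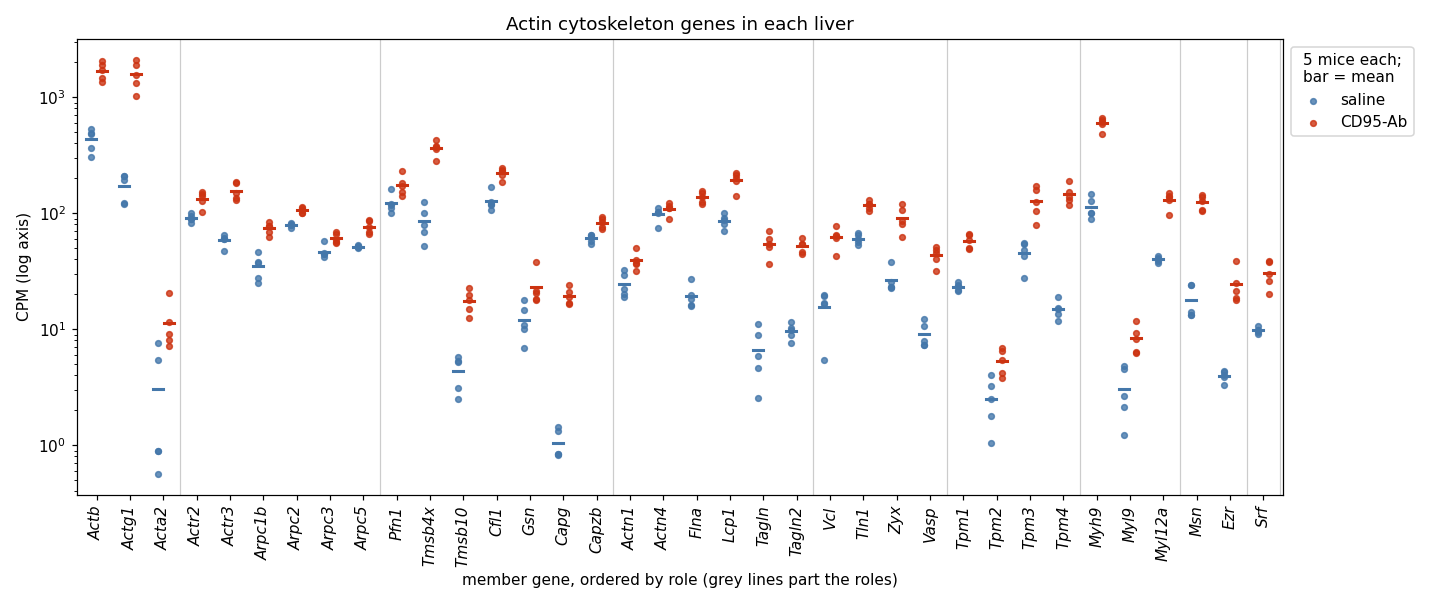
CPM of each member on a log axis in 5 saline mice (blue) and 5 CD95-Ab mice (red), with a bar at the group mean and the genes ordered by role. The colours separate for 30 of the 36 members, and the separation is widest for Capg (saline mean 1.05 CPM, CD95-Ab mean 19.4 CPM).

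Both cytoplasmic actins increased, γ-actin by more than β-actin, and after CD95-Ab they were the most abundant members per length. Actb (chr5:142903115-142906754 in GRCm38) encodes β-actin, and it was at 363, 487, 303, 528 and 494 CPM in saline mice and at 1464, 2045, 1890.2, 1719.9 and 1361 CPM in CD95-Ab mice. The groups were well apart, and the log2 fold change was 1.96 ± 0.20 (SE, FDR = 1.31e-05). Actg1 (chr11:120345690-120348542) encodes γ-actin, and it was at 119, 208, 123, 209 and 193 CPM in saline mice and at 1562, 2112, 1911, 1322 and 1029.8 CPM after CD95-Ab. The lowest CD95-Ab mouse, replicate 5, was far above the highest control, and the log2 fold change was 3.22 ± 0.26 (SE, FDR = 2.83e-06). Acta2 (chr19:34241090-34255590) encodes the α-actin of smooth muscle and of activated stellate cells. It was at 7.55, 0.563, 5.41, 0.885 and 0.890 CPM in saline mice, where replicates 1 and 3 stood apart from the others, and at 9.02, 11.5, 20.5, 7.23 and 8.08 CPM in CD95-Ab mice. The groups overlapped by saline replicate 1 alone against the lowest CD95-Ab mouse, and the log2 fold change was 1.86 ± 0.65 (SE, FDR = 0.0333). The call was lost without saline replicates 2, 4 or 5 and without CD95-Ab replicates 2 or 3, with adjusted p between 0.0536 and 0.0830. The Acta2 log2 fold change was 2.53 without saline replicate 1, 2.16 without saline replicate 3 and 1.54 without CD95-Ab replicate 3, and its range with 1 mouse left out was 1.54 to 2.53. With a block for replicate number it was 2.46.

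The Arp2/3 complex binds the side of a filament and starts a branch on it. The 6 subunit genes among the members were all higher, with log2 fold changes of 0.38 to 1.42 and a median of 0.56. Actr3 encodes one of the actin-related subunits that form the first pair of the branch. It was at 60.9, 65.2, 59.6, 59.6 and 47.1 CPM in saline mice and at 135, 182, 185, 129.7 and 149 CPM in CD95-Ab mice, with a log2 fold change of 1.42 ± 0.14 (SE, FDR = 1.29e-05). Arpc1b encodes a scaffold subunit that is the main form in blood cells. Its values were 38.0, 46.2, 25.2, 27.6 and 37.2 CPM in saline mice and 84.1, 77.8, 77.5, 68.8 and 62.3 CPM after CD95-Ab, and its log2 fold change was 1.09 ± 0.17 (SE, FDR = 2.93e-04). The groups did not overlap for either gene. The remaining members of this group had log2 fold changes of 0.56 for Actr2, 0.42 for Arpc2, 0.57 for Arpc5 and 0.38 for Arpc3. Arpc3 was the smallest of these changes (FDR = 0.0195) and its groups overlapped, since saline replicate 5 at 57.3 CPM was above the lowest CD95-Ab mice. Its call was lost without saline replicates 1, 3 or 4 or CD95-Ab replicates 3 or 4 (adjusted p 0.0503 to 0.0712), with upper quartile factors (0.0602) and without a filter (0.0520), and that of Arpc2 was lost with unadjusted totals (0.0562). Subunit genes outside the members, named after their values were seen, did not all share this direction. Arpc4 was higher (log2 fold change 0.39, FDR = 0.00890), whereas Arpc1a, the paralog of Arpc1b, was at 38.6, 41.9, 35.8, 38.2 and 35.7 CPM in saline mice and at 35.7, 31.0, 33.4, 31.7 and 24.3 CPM in CD95-Ab mice. Every CD95-Ab mouse was below every control for Arpc1a, the nearest pair by less than the printed digits, and its log2 fold change of -0.29 was not called (FDR = 0.0606). Arpc5l, the paralog of Arpc5, had a log2 fold change of -0.20 with overlapping groups (FDR = 0.297).

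Among genes that handle actin monomers and filament ends, the change spread from weak to the largest of all members. Each of the 7 was higher, with a median log2 fold change of 0.94. Capg encodes a protein that caps the fast-growing end of filaments and is abundant in macrophages. It was at 1.43, 1.33, 0.817, 0.847 and 0.834 CPM in saline mice and at 20.9, 24.1, 16.8, 16.6 and 18.8 CPM in CD95-Ab mice. It was the least abundant member per length in saline mice and the log2 fold change was 4.20 ± 0.21 (SE, FDR = 2.07e-07), with no overlap between groups. Tmsb4x encodes thymosin β4, the main buffer of G-actin, which was at 101, 126, 52.3, 68.5 and 78.8 CPM in saline mice and at 281, 373, 426, 381 and 357 CPM after CD95-Ab. Every CD95-Ab mouse was above the controls, and the log2 fold change was 2.09 ± 0.23 (SE, FDR = 2.20e-05). Tmsb10, a related monomer buffer, changed from 4.38 ± 1.48 to 17.6 ± 4.03 CPM (mean ± SD), a log2 fold change of 1.99. Gsn (gelsolin, which cuts and caps filaments) was highest in CD95-Ab replicate 3 at 37.9 CPM and changed by 0.94, Cfl1 (cofilin, which cuts ageing filaments) by 0.79, Pfn1 (profilin, which loads monomers onto growing ends) by 0.52 and Capzb (a subunit of capping protein) by 0.45 on the log2 scale. For Pfn1 the groups overlapped (FDR = 0.0229). The call of Pfn1 was lost without saline replicates 1, 3 or 4 or CD95-Ab replicate 4 (adjusted p 0.0560 to 0.0728) and with upper quartile factors (0.0541), and that of Capzb was lost with unadjusted totals at an adjusted p just above 0.05.

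The crosslinking and bundling genes ranged from large increases to a gene that was not called. Of the 6, 5 were higher, with a median log2 fold change of 1.80 over all 6. Tagln encodes transgelin (SM22α), a smooth muscle protein and a classical SRF target. It was at 11.0, 2.55, 8.85, 4.66 and 5.91 CPM in saline mice and at 51.3, 60.3, 70.4, 54.6 and 36.7 CPM in CD95-Ab mice. The lowest CD95-Ab mouse was above every control, and the log2 fold change was 3.05 ± 0.34 (SE, FDR = 2.84e-05). Flna encodes filamin A, which ties filaments into a gel and to integrins, and its values were 26.9, 19.7, 15.7, 16.3 and 18.3 CPM in saline mice and 125, 138, 155, 121 and 149 CPM after CD95-Ab. The log2 fold change was 2.83 ± 0.17 (SE, FDR = 4.47e-07), again with no overlap. Tagln2, the transgelin of non-muscle cells, changed from 9.63 ± 1.49 to 52.1 ± 6.72 CPM, a log2 fold change of 2.43. Lcp1, the plastin of leukocytes, changed from 86.1 ± 11.4 to 194 ± 31.4 CPM (log2 fold change 1.17). The α-actinins had the smallest log2 fold changes of this group. Actn1 had a log2 fold change of 0.67 ± 0.18 (SE, FDR = 0.00847), a call that was lost with unadjusted totals (adjusted p 0.0543). Actn4, the more abundant α-actinin per length in these livers, was at 111, 103, 99.8, 103 and 75.2 CPM in saline mice and at 111, 115, 123, 89.1 and 110.5 CPM in CD95-Ab mice, with a log2 fold change of 0.15 ± 0.13 (SE, FDR = 0.361).

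All 4 focal adhesion genes were higher and none of them overlapped between groups. Their median log2 fold change was 1.89. Vasp encodes a protein that lengthens filaments at adhesions and leading edges. It was at 10.6, 12.2, 7.89, 7.31 and 7.31 CPM in saline mice and at 31.5, 48.4, 51.6, 39.9 and 45.3 CPM in CD95-Ab mice, with a log2 fold change of 2.26 ± 0.19 (SE, FDR = 3.31e-06). Vcl encodes vinculin, which holds talin to actin under tension, and its promoter carries one of the boxes shown above. Its values were 19.6, 16.9, 16.5, 19.3 and 5.38 CPM in saline mice, where replicate 5 was far below the rest, and 77.5, 64.6, 64.2, 43.1 and 61.5 CPM in CD95-Ab mice. The log2 fold change was 2.00 ± 0.30 (SE, FDR = 2.18e-04). Zyx, which encodes the tension-responsive adhesion protein zyxin, changed from 26.6 ± 6.66 to 91.2 ± 22.4 CPM (log2 fold change 1.78), with saline replicate 5 the highest control at 38.3 CPM. Tln1, which encodes talin and joins integrins to actin, changed from 60.2 ± 5.68 to 117 ± 9.78 CPM (log2 fold change 0.96).

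Tropomyosins, which lie along filaments and set which proteins can bind them, were all 4 higher, with a median log2 fold change of 1.41. Tpm4 stood out from the others. It was at 15.4, 13.6, 14.8, 11.7 and 18.8 CPM in saline mice and at 118, 151, 191, 138 and 131 CPM in CD95-Ab mice, and the log2 fold change was 3.29 ± 0.17 (SE, FDR = 2.69e-07). The next largest change was that of Tpm3, at 55.2, 54.7, 48.5, 43.0 and 27.9 CPM in saline mice and 125, 159, 173, 79.1 and 105 CPM after CD95-Ab. Saline replicate 5 was the lowest control and CD95-Ab replicate 4 the lowest treated mouse, the groups did not overlap, and the log2 fold change was 1.48 ± 0.24 (SE, FDR = 3.71e-04). Tpm1 changed by 1.33 and Tpm2, a muscle form, by 1.09 on the log2 scale, and Tpm2 overlapped between groups (FDR = 0.0153).

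Nonmuscle myosin II is the motor that contracts actin bundles, and its 3 members were all higher (median log2 fold change 1.70). Myh9 encodes the heavy chain of myosin IIA. It was at 148, 128, 100.0, 100.0 and 88.8 CPM in saline mice and at 639, 617, 656, 589.8 and 484 CPM in CD95-Ab mice. The groups were far from overlapping, and the log2 fold change was 2.40 ± 0.17 (SE, FDR = 1.38e-06). Myl12a encodes a regulatory light chain, and its values of 41.2, 38.5, 37.5, 40.6 and 43.0 CPM in saline mice varied little, compared with 129, 137, 150.1, 141 and 97.0 CPM in CD95-Ab mice. Its log2 fold change was 1.70 ± 0.13 (SE, FDR = 2.07e-06). Myl9, the regulatory light chain of smooth muscle and the fourth gene with a CArG box, changed by 1.44 ± 0.34 (SE, FDR = 0.00419) on the log2 scale. Other myosin genes outside the members, named after their values were seen, did not share this increase. Myl6 (log2 fold change 0.36, FDR = 0.107), Myl12b (0.12, FDR = 0.428) and Myh10 (0.25, FDR = 0.485) were not called, and Myh14 was lower (-0.85, FDR = 3.81e-04).

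Ezrin, radixin and moesin tie actin to the cell membrane, and moesin is the form of leukocytes and endothelium. Msn was at 23.9, 24.3, 13.4, 13.2 and 14.1 CPM in saline mice and at 107, 127, 138, 104 and 143 CPM in CD95-Ab mice. The log2 fold change was 2.80 ± 0.22 (SE, FDR = 2.19e-06). Ezr, the form of epithelia such as bile ducts, was at 4.30, 3.32, 4.37, 4.04 and 3.89 CPM in saline mice and at 21.5, 25.2, 38.8, 18.7 and 17.7 CPM in CD95-Ab mice. Replicate 3 was the highest, all 5 were above the controls, and the log2 fold change was 2.61 ± 0.22 (SE, FDR = 3.19e-06). The sums of leukocyte markers (24.9 to 72.2 CPM in saline mice and 204 to 273 CPM in CD95-Ab mice) and of cholangiocyte markers (18.4 to 33.9 and 48.4 to 186 CPM) moved in the same direction, and their part in these changes was not tested. Spp1 and Sox9 made up most of the cholangiocyte sum, with means of 65.9 and 58.4 CPM in CD95-Ab mice. No other gene of that list had a mean above 2.63 CPM in those mice.

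The gene of SRF itself was higher. Srf (chr17:46548329-46556175) was at 9.55, 10.6, 9.89, 9.0 and 9.83 CPM in saline mice, a narrow range, and at 29.8, 38.3, 38.5, 25.8 and 20.1 CPM in CD95-Ab mice. Replicates 2 and 3 were the highest and replicate 5 the lowest of the CD95-Ab mice, and the lowest was still above every control. The log2 fold change was 1.64 ± 0.17 (SE, FDR = 1.74e-05). The 4 members with a CArG box in their window (Srf, Actg1, Vcl and Myl9) had log2 fold changes of 1.64, 3.22, 2.00 and 1.44. These lay within the range of the members whose window held no exact box.

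Levels between genes can be compared only per length of transcript, for which the deposited FPKM values (fragments scaled for transcript length and library total) were used. In saline mice Actb was the highest member at 246 ± 58.7 FPKM (SD, n = 5), followed by Pfn1 at 152 ± 17.5, Tmsb4x at 127 ± 53.5, Cfl1 at 119.7 ± 12.5 and Actg1 at 107 ± 40.9 FPKM. Actb stood above Pfn1 by more than their SDs added together, and each of the next 4 differed from its neighbour in this order by less. After CD95-Ab, Actb at 898 ± 139 and Actg1 at 889.6 ± 234 FPKM differed by less than their SDs, and Tmsb4x was next at 493 ± 40.4 FPKM. Tpm4 moved from place 22 to place 10 and Myh9 from place 17 to place 7 among the 36 members, whereas Actn4 moved from place 11 to place 25. The lowest members were Capg (0.924 ± 0.364 FPKM) and Ezr (1.33 ± 0.187 FPKM) in saline mice and Tpm2 (4.43 ± 0.870 FPKM) and Acta2 (6.28 ± 2.68 FPKM) after CD95-Ab.

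Because related genes changed by different amounts, the make-up of several protein families differed between groups at the level of RNA. Of the FPKM of the 3 actins, Actg1 held 29.6% ± 3.5 (SD, n = 5) in saline mice and 49.1% ± 3.3 in CD95-Ab mice. The Actg1 to Actb ratio of FPKM was 0.339, 0.534, 0.418, 0.430 and 0.417 in saline mice and 1.10, 1.07, 1.04, 0.849 and 0.830 in CD95-Ab mice. The groups did not overlap, and the log2 ratio of counts was higher by 1.24 (two-sided exact permutation test, p = 0.00794, adjusted p = 0.0212 over 8 pairs of genes). Of the FPKM of the 4 tropomyosins, Tpm4 held 15.9% ± 3.5 in saline mice and 41.1% ± 4.2 after CD95-Ab, and the Tpm4 to Tpm1 ratio moved from 0.509 ± 0.075 to 2.04 ± 0.32. The log2 ratio of counts was higher by 1.97, with the same p and adjusted p in the exact permutation test and no overlap. The Actn1 to Actn4 ratio was also higher without overlap, by 0.52 on the log2 scale (exact permutation test, p = 0.00794, adjusted p = 0.0212). With 5 mice in each group this test cannot give a p below 0.00794.

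**Figure D3:**
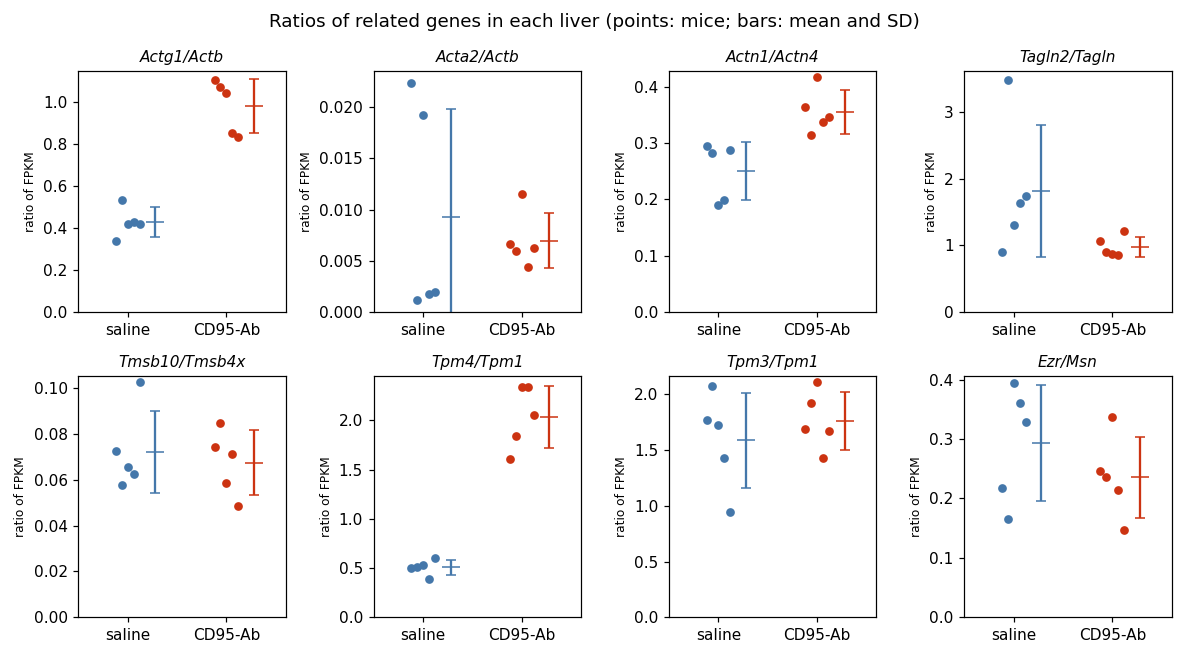
Ratio of FPKM of 8 pairs of related genes in each mouse (points), with mean and SD beside them, in saline mice (blue) and CD95-Ab mice (red), on axes that start at 0. The groups do not overlap for Actg1/Actb, Actn1/Actn4 and Tpm4/Tpm1 and overlap for the other 5 pairs.

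The remaining 5 pairs did not pass the threshold after adjustment. The difference for the Tagln2 to Tagln ratio was -0.75 on the log2 scale (exact permutation test, p = 0.0397, adjusted p = 0.0794, groups overlapping), and it passed without saline replicate 1 (adjusted p = 0.0317). Differences of 0.57 for Acta2 to Actb (exact permutation test, adjusted p = 0.659), -0.29 for Ezr to Msn (0.559), 0.15 for Tpm3 to Tpm1 (0.659) and -0.09 for Tmsb10 to Tmsb4x (0.659) did not pass, and the groups overlapped for each of these pairs. For the Acta2 to Actb ratio the saline mice themselves differed widely, with an SD of 2.02 on the log2 scale compared with 0.50 after CD95-Ab.

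RSEM shares out reads that match several genes, so values of near-identical copies depend on how far their sequences differ. The first 120 coding bases of Actb and Actg1 (GENCODE M21) are shown with every base that differs between them in capitals, since the ratio of these genes differed between the groups.
Actb: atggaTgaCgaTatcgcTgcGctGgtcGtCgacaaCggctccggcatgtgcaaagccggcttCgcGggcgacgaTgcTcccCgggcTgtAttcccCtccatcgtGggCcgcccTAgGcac
Actg1: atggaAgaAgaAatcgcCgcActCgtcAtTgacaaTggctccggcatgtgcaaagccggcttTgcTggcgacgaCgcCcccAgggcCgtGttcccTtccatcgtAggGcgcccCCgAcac
Here 22 of 120 bases differed. Over the whole coding sequence of 1125 bases the genes were 88.6% identical, the longest identical run was 62 bases, and no stretch of 100 bases, the length of a read, of coding sequence was the same in both. The coding sequences of the other pairs compared were less alike, 82.8% for Acta2 with Actb and 77.0% for Actn1 with Actn4. Processed pseudogenes of the actins were not examined, so how far they drew reads from Actb and Actg1 was not tested.

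Family members outside the list of 36 completed 2 of these comparisons. Radixin (Rdx) held 85.6% ± 2.9 of the FPKM of the ezrin, radixin and moesin genes in saline mice and 32.1% ± 4.8 in CD95-Ab mice, while Msn held 11.2% ± 2.5 and 55.0% ± 2.8 and Ezr held 3.17% ± 0.96 and 12.9% ± 3.7. Among the heavy chains of nonmuscle myosin, Myh9 held 67.4% ± 4.6 in saline mice and 93.6% ± 0.75 after CD95-Ab, Myh14 held 19.8% ± 5.0 and 2.79% ± 0.61, and Myh10 held 12.8% ± 1.3 and 3.65% ± 0.74. The level of Myh10 itself did not fall, with a log2 fold change of 0.25 that was not called (FDR = 0.485). Rdx and Myh14 were 2 of the few genes of the pathway that were lower, with log2 fold changes of -0.91 ± 0.21 (SE, FDR = 0.00415) and -0.85 ± 0.14 (SE, FDR = 3.81e-04). These genes were chosen to complete their families after values were seen.

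Contractile genes of smooth muscle varied among the saline mice themselves. Saline replicates 1 and 3 were the highest controls for Acta2 (7.55 and 5.41 CPM), for Tagln (11.0 and 8.85 CPM) and for Myl9 (4.80 and 4.54 CPM), and the other saline mice were at 0.563 to 0.890 CPM for Acta2. Myh11, the myosin heavy chain of smooth muscle, named after its values were seen, had the same 2 high controls at 8.66, 0.978, 5.97, 1.69 and 1.11 CPM in saline mice and 5.62, 4.46, 4.98, 3.51 and 4.63 CPM in CD95-Ab mice. Its log2 fold change of 0.33 ± 0.54 (SE, FDR = 0.639) was not called. Des, the muscle and stellate cell filament gene desmin, likewise named after its values were seen, was at 3.43, 2.94, 4.25, 2.31 and 2.97 CPM in saline mice and 5.78, 7.26, 8.24, 8.11 and 5.91 CPM in CD95-Ab mice, and its log2 fold change was 1.15 ± 0.19 (SE, FDR = 3.84e-04). Tagln was therefore higher in all CD95-Ab mice than in the 2 high controls, whereas Myh11 was not.

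**Figure D4:**
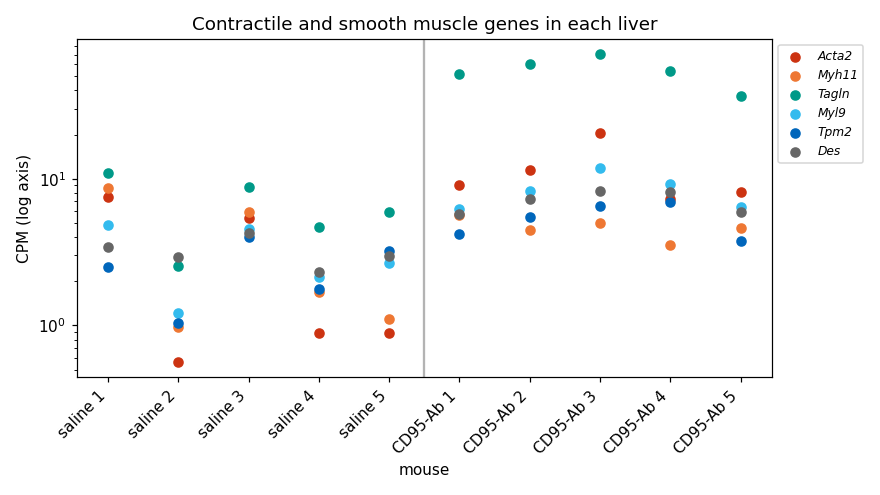
CPM (log axis) of 4 members (Acta2, Tagln, Myl9 and Tpm2) and of Myh11 and Des in each of the 10 mice, with saline mice to the left of the grey line and CD95-Ab mice to the right. Saline replicates 1 and 3 are the highest controls for Acta2, Tagln, Myl9 and Myh11, and replicates 3 and 5 are for Tpm2. Tagln lies above all controls in every CD95-Ab mouse.

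Most other genes of the pathway that were called were also higher, with exceptions mainly among actin-binding genes. In 6 lists of other genes of the pathway, 96 of 108 genes could be tested, 64 of these were higher, 7 were lower and 26 passed a log2 fold change of 2, all upwards. The median was 0.73, compared with 0.01 over all tested genes and the 25.4% and 22.0% of tested genes called higher and lower. The lower genes, named after their values were seen, were Coro1b, Tln2, Myh14, Mylk (the kinase of myosin light chains), Rdx, Rnd2 and Scai. The number of lower genes was 4 when saline replicate 1, saline replicate 4 or CD95-Ab replicate 2 was left out.

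Among other nucleation genes 11 of 19 tested were higher and none was lower. The count of higher genes was 7 with unadjusted totals, and 1 gene was lower with the DESeq2 Wald test, with upper quartile factors and without CD95-Ab replicate 1 or 4. In this list the largest changes were those of Fmnl1, a formin of leukocytes (1.21 to 12.2 CPM, log2 fold change 3.33), and of Hcls1, the cortactin of blood cells (4.49 to 25.2 CPM, 2.49). Other actin-binding genes were higher for 20 of 34 and lower for 5. The lower count was 3 without saline replicate 1, 3 or 4 or CD95-Ab replicate 1 or 2, and at an FDR of 0.01 the list had 13 higher and 3 lower. Past a log2 fold change of 2 were Enah (2.88) and Evl (2.00), relatives of Vasp, Coro1a (2.86), the coronin of leukocytes that also stands on the leukocyte marker list, the calponin gene Cnn2 (2.39), the bundling protein gene Fscn1 (2.15) and Csrp1 (2.11).

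The SRF cofactors did not share a direction. Mrtfa, which encodes MRTF-A, was at 4.87, 5.99, 4.99, 5.12 and 5.40 CPM in saline mice and at 22.9, 22.6, 17.5, 27.9 and 17.7 CPM in CD95-Ab mice, and all CD95-Ab mice were above all controls (log2 fold change 2.04 ± 0.15, FDR = 1.58e-06). Fhl2, an SRF-binding protein that is also an SRF target, changed from a low level of 0.167 CPM to 1.67 CPM (3.31 ± 0.37, FDR = 2.67e-05). Elk3 was higher by 0.77 ± 0.24 (SE, FDR = 0.0205). Mrtfb (0.33 ± 0.13, FDR = 0.0597), Elk1 (0.06 ± 0.17, FDR = 0.780) and Elk4 (-0.03 ± 0.11, FDR = 0.824) were not called. Scai, which encodes a repressor of MRTF, had a log2 fold change of -0.45 ± 0.16 (SE, FDR = 0.0380) and overlapped between groups. Its call was lost with unadjusted totals, with FPKM values, without a filter, with a block for replicate number and with the omission of saline replicate 1, 2, 4 or 5 or of CD95-Ab replicate 2, 3 or 4. Myocd, the myocardin gene of heart and smooth muscle, was too low to be tested.

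On the lists of SRF immediate early genes and of other MRTF and SRF targets, most genes were higher as well. None of those tested on these lists had a log2 fold change below 0, but the lists do not hold every known SRF target. Of the immediate early genes, 8 of 9 tested were higher and none was lower, with Egr2 (0.805 to 12.9 CPM, log2 fold change 4.01), Fosb (0.485 to 7.08 CPM, 3.83) and Arc (0.173 to 1.02 CPM, 2.58) past 2 on the log2 scale. The groups overlapped for 5 of the 9. The summed level of the list was 172 to 617 CPM in the other saline mice and 1017 CPM in saline replicate 2, which was above CD95-Ab replicates 1 (857 CPM) and 5 (1011 CPM). The number called higher was 6 to 9 with 1 mouse left out, 9 without saline replicate 2, and 5 with a minimum of 10 counts in every mouse, which leaves fewer of these genes to test. Fos, named after its values were seen, was not called (FDR = 0.134), and the saline mice themselves ran from 6.37 to 156 CPM. Of 11 other targets of MRTF and SRF, 10 were higher and none was lower. Thbs1, which encodes the matrix protein thrombospondin 1 and is also abundant in platelets, was at 2.52, 0.889, 2.42, 1.69 and 2.10 CPM in saline mice and at 178, 172, 233, 202 and 171 CPM in CD95-Ab mice (log2 fold change 6.62 ± 0.28, FDR = 9.23e-08). Platelet markers summed to 2.20 to 8.45 CPM in saline mice and to 9.92 to 31.1 CPM in CD95-Ab mice, and their part in the change of Thbs1 was not tested. Ankrd1, a stretch-responsive gene, was at 0 counts in saline replicate 4 and at no more than 0.148 CPM in any control, and it was at 2.60, 5.48, 9.08, 3.39 and 2.08 CPM in CD95-Ab mice, past the same fold threshold. The transglutaminase gene Tgm2 (99.1 to 741 CPM, log2 fold change 2.90), the matricellular genes Ccn1 (2.81) and Ccn2 (2.53) and Tgfb1i1 (2.74) were among the others past the same threshold. Over all 6 lists of other pathway genes, the CArG box was found in the RefSeq window of 11 of 80 genes (13.8%), compared with 1.81% of all genes with a window. Some of these lists were made up of SRF targets, so this difference is not independent of their choice either. On the lists of immediate early genes and of other MRTF and SRF targets, the genes with a box were Egr2, Filip1l and Fhl1. Acta1, Actc1 and Vil1 also had a box but were too low to be tested.

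**Figure D5:**
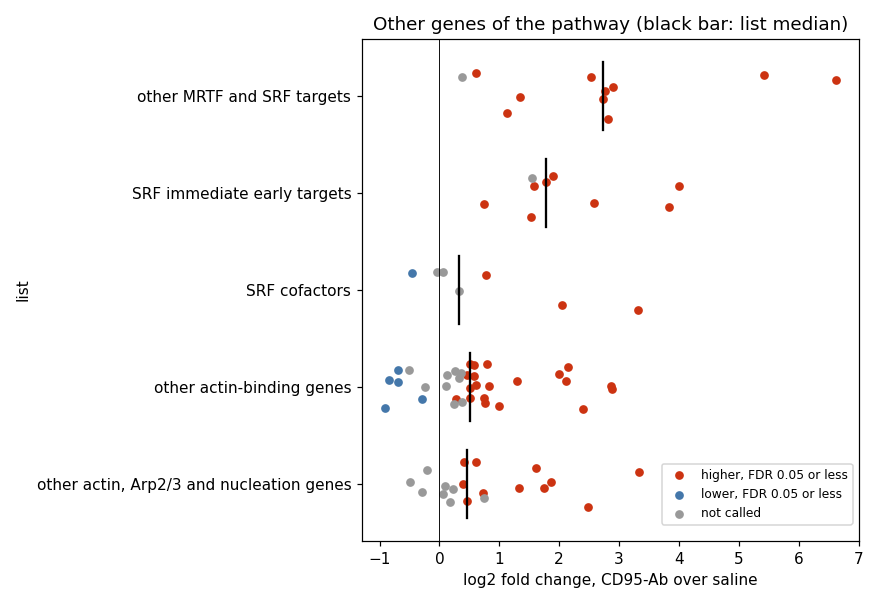
Log2 fold change (x axis, CD95-Ab over saline) of the 80 tested genes in 5 of the lists of other pathway genes (y axis), coloured red for higher, blue for lower and grey for not called, with a black bar at the median of each list. Among the lists shown, the median is highest for the other MRTF and SRF targets (2.74) and lowest for the SRF cofactors (0.33).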

How the data were processed

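Livers of 10 mice were profiled by paired-end RNA-seq after TruSeq library preparation from 500 ng of total RNA, 5 per group by the sample labels. Alignment and assignment to genes were done by the authors with RSEM 1.2.19. For every gene of each mouse they deposited an expected count, which here is a whole number without normalization. They also deposited FPKM, in which RSEM had divided by transcript length and library total. The annotation release for mouse and the genome build are not given in the sources used here, nor is whether the kit kept strand, so reads of overlapping genes cannot be told apart. Symbols and positions came from GENCODE M21 (GRCm38) and promoter windows from RefSeq (GRCm38.p6).

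Low genes were removed with filterByExpr (minimum count 10) and totals were adjusted by TMM. A quasi-likelihood fit with a group term alone was made in edgeR (version 4.0.16, R 4.3.3), and Benjamini-Hochberg adjustment gave the FDR. Thresholds were an FDR of 0.05 and, as in the study's methods, a log2 fold change of 2 or -2. Standard errors follow from the F statistic. Ratios of genes were compared by two-sided exact permutation of log2 count ratios, adjusted over 8 pairs. Python 3.11.15, pandas 2.3.3 and scipy 1.17.1 made the summaries, and the code was tested on simulated data. Depth was 25965699 to 62097636 counts per mouse. Chi-square per degree of freedom was 39.4 to 515 over the 20 pairs of mice within a group, so no library repeated another of its own group.

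The members and all lists were chosen with earlier results of these data known. Values in every mouse were given for Actb, Actg1, Acta2, Srf and, per role, the 2 members with the largest change. Other pathway genes were named past a log2 fold change of 2, as were all SRF cofactors (some items that met the rule are not reported here), and marker lists by at most 2 genes of highest CPM or by those with 0 counts. Alternatives were size factors of DESeq2 1.42.0, upper quartile factors, unadjusted totals, the DESeq2 Wald test, limma 3.58.1 on log2(FPKM + 0.1), no filter, 10 counts in every mouse, an FDR of 0.01, a block for replicate number and the omission of each mouse.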

Additional observations from a re-analysis of the deposited data

Results flagged for a closer look

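The CPM of the members and the 8 ratios gave 88 groups of 5 mice, which were checked for a single mouse far from the rest of its group, and 5 were flagged, where chance flags about 1 in 20. Of the flags, 4 fell on saline replicate 5. It was the highest saline mouse for Arpc3 at 57.3 CPM (others 42.0 to 45.1), for Cfl1 at 169 CPM (others 108 to 124) and for Zyx at 38.3 CPM (others 22.6 to 25.7), and the lowest for Vcl at 5.38 CPM (others 16.5 to 19.6). The last flag was Gsn, where CD95-Ab replicate 3 was the highest of its group at 37.9 CPM (others 17.9 to 21.2). Without saline replicate 5 the log2 fold changes were 0.46 for Arpc3 and 1.78 for Vcl, compared with 0.38 and 2.00 over all mice, and all 5 genes stayed higher at an FDR of 0.05 or less when that mouse was left out.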

How the results depend on the processing

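No member changed direction under any alternative. Leaving out 1 mouse gave 32 to 35 members higher, 11 to 14 past a log2 fold change of 2 and a median log2 fold change of 1.45 to 1.65. An FDR of 0.01 removed the calls of Acta2, Arpc3, Pfn1, Gsn and Tpm2. The number of other pathway genes called lower was 3 at an FDR of 0.01, 4 to 7 with 1 mouse left out, and 7 over all mice, and that called higher was 56 to 67 with 1 mouse left out. The Tagln2 to Tagln difference ranged from -0.97 to -0.48 with 1 mouse left out. The difference of Tmsb10 to Tmsb4x turned to 0.0385 without saline replicate 5 and to 0.0181 without CD95-Ab replicate 5, with a range of -0.18 to 0.04, and that of Tpm3 to Tpm1 turned to -0.0553 without saline replicate 5, with a range of -0.06 to 0.25. The cause of these changes was not tested.

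Both groups carry replicate numbers 1 to 5, which no label ties to a shared litter, cage or day. Deviations from the group means correlated between same-numbered mice with r between -0.274 and 0.257, and 2 of the 5 mice correlated best with their own number, so pairing was not used. When the replicate number was added to the model as a block, calls over all genes numbered 5987 instead of 6495 and the calls of Arpc3 (adjusted p = 0.0536) and of the SRF cofactor Scai were lost. For the ratios, an exact sign-flip permutation test over 5 pairs of mice cannot go below a p of 0.0625 before adjustment. Differences there were 1.24 for Actg1 to Actb, 0.52 for Actn1 to Actn4 and 1.97 for Tpm4 to Tpm1, as in the unpaired test. The adjusted p of each was 0.167 in the sign-flip test. At this depth 12 of the 108 other pathway genes were too low to be tested.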
